A study of Equus caballus with 37 samples.

Results

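RICTOR (ENSECAG00000000308) was followed through the blood of Arabian horses in race training, as 1 gene of the 26991 in the table of gene counts. It was taken by its identifier, and it also stands in a list of genes that the study drew from these same libraries. RICTOR encodes the subunit that defines mTORC2, the mTOR kinase complex that lacks RPTOR (raptor), the scaffold of mTORC1. mTORC2 responds to growth factors through phosphoinositide 3-kinase and phosphorylates AKT, SGK1 and protein kinase C, and by this route it acts on cell survival, glucose uptake and the actin cytoskeleton. In blood cells it is known for its part in the migration of neutrophils and in the differentiation of T cells. RNA sequencing measures the transcript of RICTOR, and neither the protein nor the kinase activity of the complex was measured.

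The horses were purebred Arabians without any engineered genotype, kept in the same stud by the same breeder, and blood was taken from the jugular vein into tubes that preserve RNA. T0 comprised 6 untrained horses, of which 5 were aged 2.5 years and 1 was aged 3 years. The trained horses were aged 3 years and gave blood in March, with the slow canter phase behind them (T1, 12 libraries), in May after the phase of intense gallop (T2, 11 libraries) and in October when the racing season had ended (T3, 8 libraries). The trained horses were bled repeatedly, before training on the day and after feeding, but no label ties a library to a horse, so each period was treated as a separate group and p-values measure the spread between libraries. The sample numbers of the labels recur at constant offsets, as 10 of the 11 T2 numbers were a T1 number plus 18 and 7 of the 8 T3 numbers were a T1 number plus 33, and the sex was the same in 10 of 10 and 7 of 7 of these. No label says what the numbers mark, and no fit used them. T0 had 2 mares and 4 stallions, T1 had 5 and 7, T2 had 4 and 7, and T3 had 4 of each. Training stage, month of sampling, the handling of each collection and, in comparisons with T0, age cannot be told apart in this design. The sample titles name no month for T0.

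Expression is given as CPM, the count of a gene in every 1000000 counts of its library after scaling by TMM. TMM gives each library a factor that sets most genes level between libraries. Totals ranged from 3810631 counts in a T1 library to 14932603 in a T3 library, with a median of 10611594. The TMM factors were 1.17 to 1.24 in T0, 0.949 to 1.21 in T2 and 1.05 to 1.25 in T3. Those of T1 ran from 0.410 to 1.14, and 5 of the 12 T1 libraries lay under 0.9. Every T1 factor and most T2 factors were below the lowest factor of T0, so factor and period partly coincide in T0:T1 and T0:T2. The study also lists sequencing pools and mapping rates. The labels of T0, T2 and T3 do not carry its running numbers, so neither was assigned to a library. Its list does give the period, and all T1 rates and most T2 rates were below every rate of T0 and T3. Mapping rate and period therefore partly coincide, and the part of rates and pools in these values was not tested. Markers of blood cell types were not analysed here, because the files and the reference pair no marker symbol with an identifier. The label of blood was therefore not checked, and fewer cells of a type that expresses RICTOR cannot be told apart from less RICTOR RNA per cell.

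RICTOR was high in untrained horses, low after the canter and gallop phases and high again at the end of the season. In T0 its CPM had a lowest value of 19.4, a median of 23.8 and a highest value of 29.6. In T1 the lowest, median and highest values were 3.98, 7.07 and 11.2. The 12 libraries of T1 thus all lay below the 6 libraries of T0.

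In T2 the CPM of RICTOR was 4.41 in the lowest library, 9.04 at the median and 18.6 in the highest. In T3 it was 17.0 in the lowest library, 35.5 at the median and 54.7 in the highest. T2 lay below T0 without overlap but overlapped most of T1, while T3 extended on both sides of T0. The T0 mean was 23.7 ± 3.41 CPM (SD, n = 6) and the T1 mean was 7.17 ± 2.20 (SD, n = 12). For T2 the mean was 9.63 ± 4.42 (SD, n = 11), and for T3 it was 34.2 ± 14.2 (SD, n = 8).

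**Figure D1:**
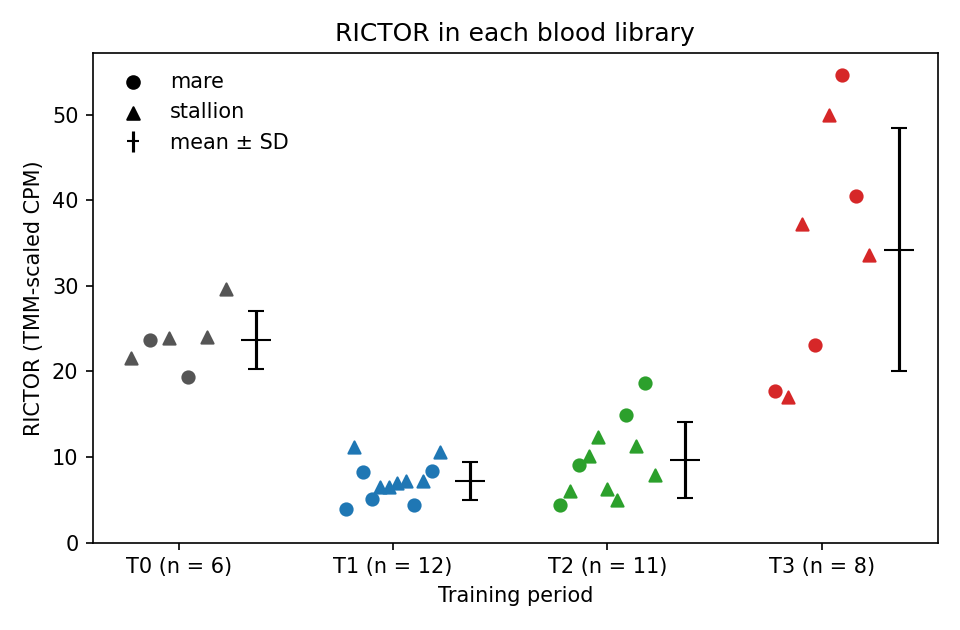
RICTOR in TMM-scaled CPM (vertical axis) in each of the 37 libraries by training period (horizontal axis), with circles for mares, triangles for stallions and bars for the mean ± SD of each period. T1 and T2 lie below every T0 library, and T3 spreads from 17.0 to 54.7 CPM.

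Over the 4 periods together, RICTOR was among the genes with the strongest evidence of a difference. The quasi-likelihood F-test of edgeR gave F = 40.8 and a Benjamini-Hochberg adjusted p-value of 3.1e-09, and the largest difference between periods was 2.27 on the log2 scale. Differences were common in these libraries, since 75.5% of the 12025 genes tested passed the same threshold. By the size of F, RICTOR ranked 22 of these 12025 genes.

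The periods were then compared in all 6 pairs, where a call required a fold change of 1.3 or more together with an adjusted p-value under 0.05. From T0 to T1 RICTOR fell 3.37-fold, by 1.75 on the log2 scale (SE 0.19, 95% interval -2.15 to -1.36, n = 6 and 12; adjusted p = 2.6e-06, edgeR). In T0:T1, 58.1% of the 11544 genes tested were called in either direction. RICTOR was lower than the T0 median in 12 of 12 T1 libraries and the groups did not overlap, a feature of 13.9% of all tested genes in this direction. Of all tested genes, 398 had a more negative log2 fold change.

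From T0 to T2 RICTOR fell 2.404-fold, by 1.27 on the log2 scale (SE 0.25, 95% interval -1.78 to -0.75, n = 6 and 11; adjusted p = 0.0019, edgeR). In T0:T2, 33.4% of the 11662 genes tested were called. All 11 libraries of T2 lay below all 6 of T0, as was the case for 5.98% of tested genes in this direction. This call was lost when the log2 TMM factor of the libraries was added to the model, with a log2 fold change of -0.54 and an adjusted p-value of 0.50 (edgeR). The loss was not particular to RICTOR, since 0 genes instead of 3900 were called in T0:T2 with that term. In that fit 1180 genes had an unadjusted p under 0.05, and RICTOR, at 0.056, was not among them (edgeR).

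RICTOR rose between the training phases and the end of the season. In T1:T3 it rose 4.84-fold, or 2.28 on the log2 scale (SE 0.23, 95% interval 1.80 to 2.75, n = 12 and 8; adjusted p = 2.7e-07, edgeR), where 65.0% of the 11471 tested genes were called. The T1 and T3 libraries did not overlap, which held for 12.1% of tested genes in this direction. This was the largest of the 6 differences of RICTOR, and 158 genes rose further.

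In T2:T3 the rise was 3.50-fold, or 1.81 on the log2 scale (SE 0.27, 95% interval 1.25 to 2.36, n = 11 and 8; adjusted p = 9.5e-05, edgeR), and 44.0% of the 11599 tested genes were called. All 8 T3 libraries were above the T2 median. The groups touched at their edges, since T3 replicates 1 and 2, at 17.8 and 17.0 CPM, were below T2 replicate 10, at 18.6 CPM. Only 88 of the genes tested in T2:T3 had a larger log2 rise than RICTOR.

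The remaining pairs did not pass the threshold. T3 was 1.43-fold above T0, or 0.51 on the log2 scale (SE 0.23, 95% interval 0.016 to 1.01, n = 6 and 8; adjusted p = 0.12, edgeR), in a comparison in which 19.6% of the 11696 genes tested were called. Of the 8 T3 libraries, 5 were above the T0 median. Without T3 replicate 2, the lowest of its period, the log2 fold change was 0.62 and the adjusted p-value was 0.043 (edgeR). With all libraries and the log2 TMM factor as a term, RICTOR was called as well, at 0.62 with an adjusted p-value of 0.011 (edgeR).

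T2 was 1.37-fold above T1, or 0.45 on the log2 scale (SE 0.23, 95% interval -0.02 to 0.92, n = 12 and 11; adjusted p = 0.12, edgeR), where 32.0% of the 11188 genes tested were called, and 7 of 11 T2 libraries were above the T1 median. That share rests on the model, since edgeR called 0 genes in T1:T2 with the log2 TMM factor as a term, with a surrogate variable as a term and without the 5 T1 libraries of low TMM factor, while 649, 913 and 1444 genes had an unadjusted p under 0.05. With the library total alone as the scale, the difference was 0.89 with an adjusted p-value of 0.043 (edgeR), while the median of all tested genes moved from 0.06 to 0.43. The order of the periods by mean level was therefore T3, T0, T2 and T1. The neighbours T3 and T0, and the neighbours T2 and T1, did not differ past the threshold in these tests, and T0 and T2 did.

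**Figure D2:**
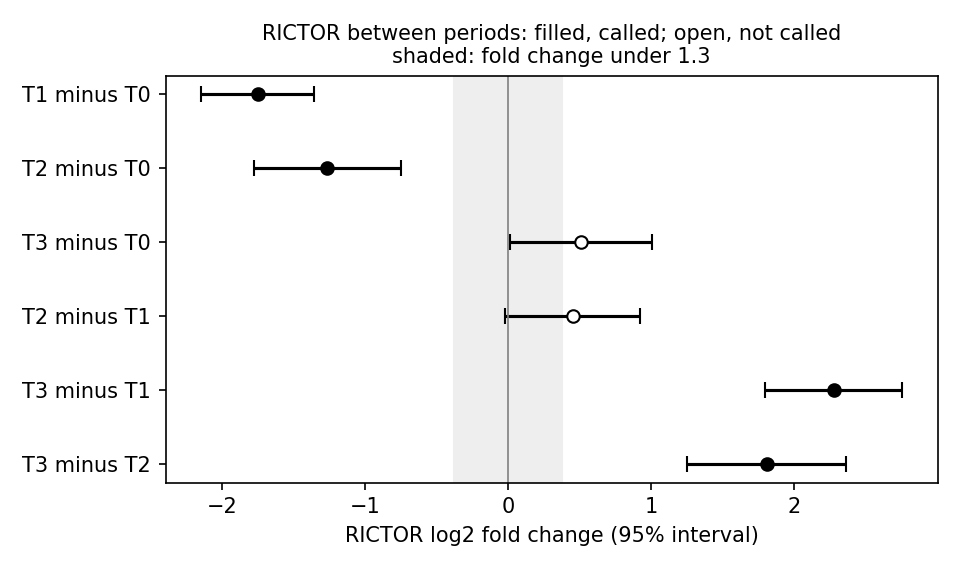
Log2 fold change of RICTOR (horizontal axis) with its 95% interval for each of the 6 pairs of periods (vertical axis, later minus earlier period), where filled points were called, open points were not and the shaded band marks fold changes under 1.3. The 4 called differences lie outside the band, from -1.75 to 2.28.

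The count of RICTOR behind these values was smaller in the training phases, which limits the precision of a single library. The T0 libraries held 275 to 393 RICTOR counts each, those of T1 13 to 91, those of T2 44 to 227 and those of T3 196 to 952. Counting error alone gives a coefficient of variation of 15.9% in T1, 10.9% in T2, 5.65% in T0 and 5.05% in T3. These coefficients cover counting error only.

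The spread of RICTOR between libraries of the same period was wide in T2 and T3. The highest library exceeded the lowest 1.53-fold in T0, 2.81-fold in T1, 4.23-fold in T2 and 3.22-fold in T3. The coefficients of variation of T0, T1, T2 and T3 were 14.4%, 30.7%, 45.9% and 41.4%. In T0, 52.2% of genes whose mean level was within 2-fold of that of RICTOR varied less than it, so that its spread among untrained horses was ordinary.

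In T1 only 21.7% of genes of similar level varied less, and their median coefficient of variation was 42.5%. In T2 91.3% of such genes varied less, with a median of 25.96%, and in T3 97.3% varied less, with a median of 15.6%. Within T3, replicates 5 and 6 had 49.9 and 54.7 CPM, and replicates 1, 2 and 4 had 17.8, 17.0 and 23.1 CPM. Replicates 1 and 2 were thus below every untrained horse, replicate 4 was within their range, and the other 5 libraries were above it.

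The level of RICTOR moved with the TMM factor within T2 and T3. In T2 the 3 libraries with the lowest factors (0.949 to 1.001) had 4.41 to 6.07 CPM, and the 3 with the highest factors (1.16 to 1.21) had 10.2 to 18.6. In T3 the 3 lowest (1.05 to 1.13) had 17.0 to 33.6 CPM, and the 3 highest (1.201 to 1.25) had 37.3 to 54.7. In T0 no such order was seen, since the 3 libraries with the lowest factors had 19.4 to 29.6 CPM and the 3 with the highest had 21.6 to 24.1. Nor was it seen in T1, where the 5 libraries with factors under 0.9 had 7.35 ± 2.87 CPM (SD, n = 5) and the other 7 had 7.04 ± 1.83 (SD, n = 7).

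The fits of T0:T1 and T1:T3 were repeated without the 5 T1 libraries with low factors, a setting chosen after the data were seen. The log2 fold change was then -1.73 in T0:T1 and 2.28 in T1:T3, and both calls were kept (edgeR). The part of the TMM factor in the spread within T2 and T3 was not tested.

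**Figure D3:**
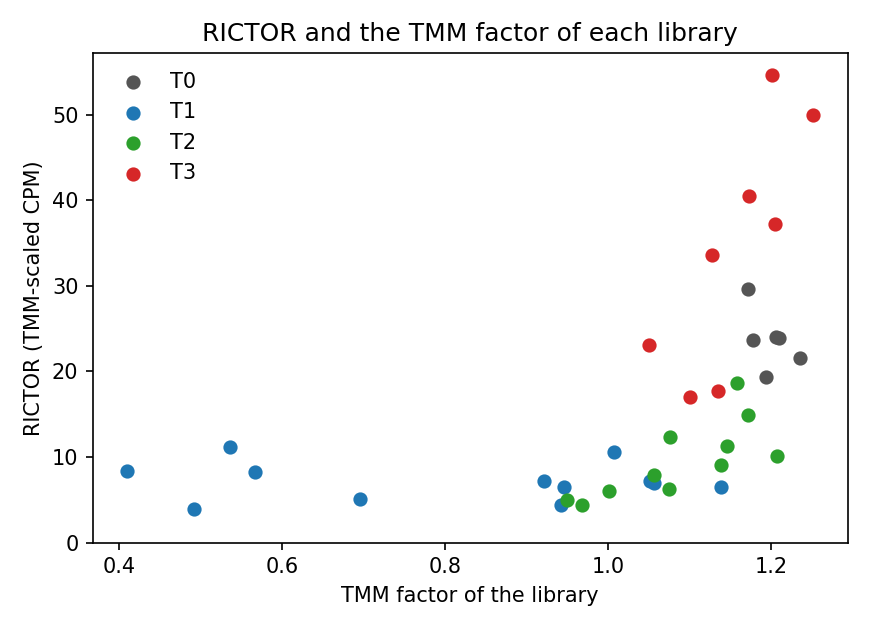
RICTOR in TMM-scaled CPM (vertical axis) against the TMM factor of the library (horizontal axis), with 1 point per library coloured by period. The T1 libraries stay between 3.98 and 11.2 CPM over factors from 0.410 to 1.14, and T2 and T3 climb at the upper end of the axis.

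The order of the period means was the same without TMM scaling. Scaled by the library total alone, the mean of T0 was 28.4 ± 3.77 (SD, n = 6), that of T1 5.78 ± 2.37 (SD, n = 12), that of T2 10.7 ± 5.46 (SD, n = 11) and that of T3 40.2 ± 18.3 counts (SD, n = 8) of RICTOR in every 1000000. RICTOR was also set against SDHA (ENSECAG00000000397), the flavoprotein subunit of succinate dehydrogenase and a usual reference gene, within each library. Per 1000 SDHA counts T0 had 117 ± 12.03 RICTOR counts (SD, n = 6), T1 had 38.6 ± 13.9 (SD, n = 12), T2 had 48.9 ± 24.0 (SD, n = 11) and T3 had 169 ± 69.5 (SD, n = 8).

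The log2 ratio to SDHA differed by -1.69 from T0 to T1 and by -1.41 from T0 to T2, and it rose by 2.11 from T1 to T3 and by 1.83 from T2 to T3. The p-values, from two-sided permutation tests and adjusted over the 6 pairs, were 0.00022, 0.00024, 9.5e-05 and 0.00022. The differences of 0.42 in T0:T3 and 0.28 in T1:T2 did not pass, with adjusted permutation p-values of 0.16 and 0.29. A ratio of this kind shows unequal change of both genes and does not fix which of them changed.

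RICTOR did not differ detectably between mares and stallions. Over all libraries, with period in the model, mares differed from stallions by -0.02 on the log2 scale (SE 0.18, 95% interval -0.38 to 0.35; adjusted p = 0.96, edgeR). Few genes were called between the sexes, since 0.0333% of the 12025 genes tested were called. The mean CPM of mares and stallions was 21.5 ± 3.06 (n = 2) and 24.8 ± 3.41 (n = 4) in T0, and 5.98 ± 2.12 (n = 5) and 8.02 ± 1.97 (n = 7) in T1. In T2 it was 11.8 ± 6.29 (n = 4) and 8.42 ± 2.85 (n = 7), and in T3 34.03 ± 16.9 (n = 4) and 34.5 ± 13.6 (n = 4).

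Mares were thus below stallions on average in T1 and above them in T2. The interaction of sex with period in T1:T2, which was tested after these values were seen, was 0.95 on the log2 scale (SE 0.45) and did not pass the adjustment over all genes (adjusted p = 0.18, edgeR). In the other pairs its adjusted p-value was above 0.53.

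The study listed RICTOR with 16 other genes that it picked for being raised in more than a single comparison. For RICTOR and most of the others T0:T3 was among these comparisons, a pair in which the main tests here did not call RICTOR. With DESeq2, the tool that the study used, RICTOR was not called here either (log2 fold change 0.52, adjusted p = 0.092, DESeq2). The reason for this difference from the study was not tested. Genes that the study listed as lowered were not used here. The list was chosen by direction on the same libraries, so the shared direction below was fixed by that choice or rests on libraries that took part in it, and it is no independent evidence. In T0:T1, 14 of the 16 were called and lower in T1, as were 29.2% of all tested genes, with a median log2 fold change of -1.44 over the list and -0.05 over all tested genes. In T0:T2, 13 were called and lower in T2, against 16.5% of tested genes, with a median of -0.97 against 0.04.

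In T1:T3, 14 of the 16 were called and higher in T3, against 32.9% of tested genes, with a median of 1.60 against 0.04. In T2:T3, 14 were called and higher, against 22.5%, with a median of 1.21 against -0.05. The pairs in which RICTOR was not called had few calls in the list. In T0:T3 only NCOA2, a coactivator of nuclear receptors, was called (log2 fold change 0.66), where 10.4% of tested genes were called and higher. In T1:T2 only WDR7 (0.76) and ATP13A3 (0.77) were called, where the share was 11.2%. RICTOR lay within the range of the list in every pair, and in T2:T3 it was exceeded by FOXN2 and by NFAT5, a transcription factor of the osmotic stress response whose 2.56 was the largest value of the list.

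FOXN2, a forkhead transcription factor, lay nearest to RICTOR over the 6 pairs. Its log2 fold changes were -1.86 in T0:T1, -1.41 in T0:T2, 0.42 in T0:T3, 0.41 in T1:T2, 2.29 in T1:T3 and 1.86 in T2:T3, and their distances from those of RICTOR summed to 0.46. HIPK1, a nuclear serine/threonine kinase that binds homeodomain proteins, followed with a summed distance of 0.58, NCOA2 with 1.08 and ATP13A3, a transport ATPase of the P5 family, with 1.65. At the other end, ACVR2A, a receptor for activins, had a summed distance of 6.41, and its values of -0.32 in T0:T1 and 0.40 in T2:T3 were not called. The called pairs of RICTOR were the called pairs of FOXN2 and HIPK1 as well.

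**Figure D4:**
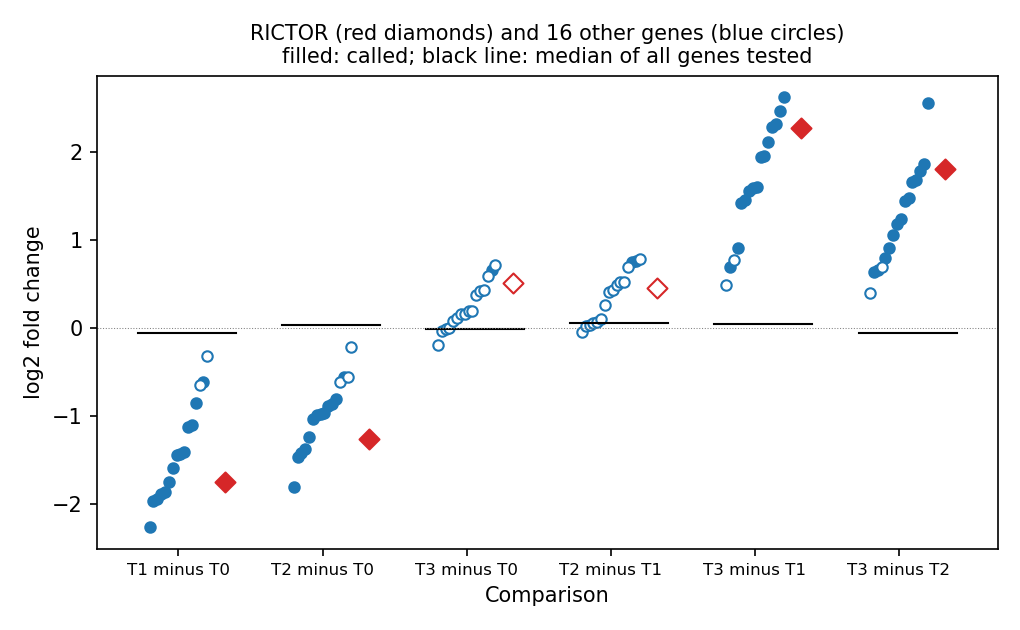
Log2 fold change (vertical axis) of RICTOR, as a red diamond, and of the 16 other genes of the list, as blue circles in order of size, in each of the 6 pairs (horizontal axis), with filled symbols for called genes and a black line at the median of all tested genes. The list, which the study picked by direction on these libraries, follows RICTOR in the 4 pairs in which RICTOR was called, and most symbols are open in T0:T3 and T1:T2.

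The genes whose levels followed RICTOR most closely were sought by Spearman's rho of log2 CPM across all 37 libraries, over the 12024 other genes that passed the filter on low counts. These values describe libraries that share periods and scaling, and they carry no p-value. The middle of the distribution was close to 0, with a median of 0.004 and quartiles at -0.55 and 0.60. The closest gene was ENSECAG00000022321 at 0.96, followed by HIPK1 (ENSECAG00000015193) at 0.95, and rho was still 0.93 at the gene ranked 10.

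Of the 10 closest genes only HIPK1 could be paired with a symbol, so no common role is described for them. FOXN2 ranked 15 at 0.93. With the mean of each period removed, rho was 0.87 for ENSECAG00000022321 and 0.84 for HIPK1, against a median of -0.02 over all genes. Both genes were picked for rho over the same libraries, which includes the differences within periods, so these values are a description of them and no check of the likeness.

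For the 16 genes of the list, rho ran from 0.52 (ACVR2A) to 0.95 (HIPK1) with a median of 0.85, and within periods its median was 0.53. The genes with the most opposite course were ENSECAG00000004924 and ENSECAG00000005071, both at -0.89. The mean CPM of ENSECAG00000004924 was 27.4 ± 1.75 for T0 (SD, n = 6), 57.7 ± 17.9 for T1 (SD, n = 12), 41.0 ± 9.54 for T2 (SD, n = 11) and 26.7 ± 3.10 for T3 (SD, n = 8). It was thus highest where RICTOR was lowest.

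HIPK1 had lowest, median and highest CPM of 55.1, 63.1 and 84.2 in T0 and of 11.98, 18.1 and 23.7 in T1. In T2 they were 8.18, 24.4 and 43.03, and in T3 44.4, 94.7 and 131. As for RICTOR, T1 and T2 lay below T0 without overlap, which held for 13.9% of tested genes in T0:T1 and for 5.98% in T0:T2.

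The level of RICTOR varied 13.7-fold over the 37 libraries and that of HIPK1 varied 15.98-fold, whereas their ratio varied 2.90-fold. Per 100 HIPK1 counts, T0 had 35.5 ± 4.47 RICTOR counts (SD, n = 6), T1 had 40.7 ± 12.3 (SD, n = 12), T2 had 39.7 ± 9.82 (SD, n = 11) and T3 had 38.5 ± 4.67 (SD, n = 8). The period means of this ratio lay within the spread of the libraries. The counts were not divided by transcript length, so the ratio describes its constancy across libraries and not which transcript was more abundant. HIPK1 was picked for its likeness, and the ratio is given as a description without a test.

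**Figure D5:**
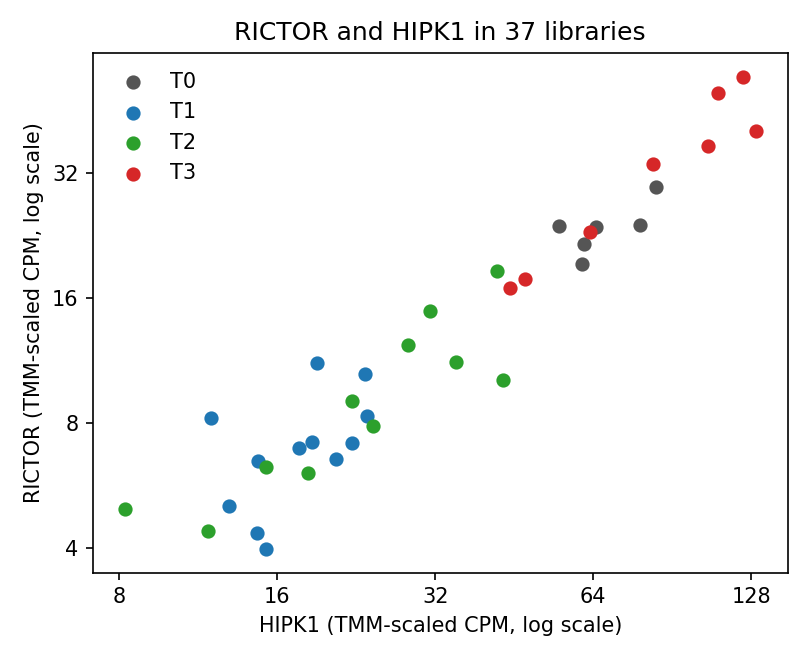
RICTOR (vertical axis) against HIPK1 (horizontal axis), both in TMM-scaled CPM on log scales, with 1 point per library coloured by period. The points follow a narrow band from the T1 and T2 libraries at the lower left to T3 at the upper right, with T0 inside the range of T3.

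The other components of mTORC2 and its pathway could not be set beside RICTOR. Of 40 symbols listed for the pathway, among them the complex subunits MTOR, MLST8 and MAPKAP1 and the substrates AKT1 and SGK1, 0 could be paired with an identifier of the counts, and none of them was analysed here. In the RefSeq annotation of the horse, RICTOR lies on chromosome 21 between FYB1 and OSMR and has 12 annotated transcripts. The long non-coding RNA gene LOC102147447 overlaps it there. Only the bounds of the genes were compared, and an overlap of their exons was not examined. The library kit does not mark strand, so reads from any shared exons could not be told apart. A count per gene does not separate the transcripts of RICTOR.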

How the data were processed

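Blood RNA was sequenced as 75-base single-end reads from unstranded libraries. The authors removed reads shorter than 36 bases or of quality under 20, aligned them with STAR to EquCab2 and quantified genes of Ensembl release 83 with RSEM. The deposited values are expected counts per gene, which the authors rounded to whole numbers and did not normalize. Their 3 smaller tables hold the same libraries for 7885 genes and were not used.

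Groups and sex were taken from the labels. The analysis used edgeR 4.0.16 (R 4.3.3): filterByExpr, TMM scaling, the quasi-likelihood F-test and adjustment after Benjamini and Hochberg over all genes tested, with only the libraries of the periods compared in each fit. The SE was derived from the log2 fold change and F. Displayed CPM was scaled over all 37 libraries, and rho used log2 CPM with a prior count of 2. Permutation tests of the SDHA ratio used scipy 1.17.1 and were exact except in T1:T2, where labels were resampled. At the median total, 1 CPM rests on 10.6 counts. The fits were tested on simulated data with few changed genes and independent libraries, a simpler setting than that of these data.

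RICTOR and all lists were chosen with earlier results of these data known. Named genes were RICTOR, the pathway list, the study's list with the 4 genes nearest to RICTOR, the 10 most and least alike genes, and SDHA. Values of further list genes were given where they were the only calls or the extremes, chosen after their values were seen. Alternatives comprised DESeq2 1.42.0, a surrogate variable (sva 3.50.0), other scalings, filters and terms, and omitted libraries. Gene sequences were not used here.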

Additional observations from a re-analysis of the deposited data

How the results depend on the processing

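The falls of RICTOR in T0:T1 and its rises in T1:T3 and T2:T3 kept their direction and call in each alternative and with each library left out. Over the alternatives the log2 fold change ran from -2.29 to -1.66 in T0:T1, from 2.11 to 2.79 in T1:T3 and from 1.27 to 1.98 in T2:T3, and the largest difference over the 4 periods ran from 2.11 to 2.79. With 1 library left out, the ranges were -1.83 to -1.69 in T0:T1, -1.41 to -1.19 in T0:T2, 0.39 to 0.62 in T0:T3, 0.33 to 0.55 in T1:T2, 2.15 to 2.37 in T1:T3 and 1.68 to 1.95 in T2:T3, and the only call that changed was T0:T3 without T3 replicate 2 (0.62). With the log2 TMM factor as a term the call in T0:T2 was lost (-0.54), RICTOR was called in T0:T3 (0.62) and the difference of mares from stallions changed sign to 0.034. That difference was 0.11 without a period term and 0.062 without the 5 T1 libraries of low TMM factor, a setting chosen after seeing the data, and it was not called in any alternative. With the library total alone RICTOR was called in T1:T2 (0.89). The cause was not tested.

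The median log2 fold change of all tested genes moved with the library total alone from -0.05 to -0.56 in T0:T1, from 0.04 to -0.13 in T0:T2, from 0.06 to 0.43 in T1:T2, from 0.04 to 0.50 in T1:T3 and from -0.05 to 0.05 in T2:T3. The numbers of called genes that moved by over 1.5 times were, with the log2 TMM factor as a term, 2795 instead of 6708 in T0:T1, 4804 instead of 7452 in T1:T3, 2965 instead of 5107 in T2:T3, 0 instead of 3900 in T0:T2 (edgeR, 1180 genes at an unadjusted p under 0.05) and 0 instead of 3584 in T1:T2 (edgeR, 649 genes). T1:T2 also had 0 calls with a surrogate variable (edgeR, 913 genes at an unadjusted p under 0.05) and without the 5 T1 libraries (edgeR, 1444 genes), and 1754 with the library total alone. One fit of all libraries called 2113 genes in T0:T2 and 717 instead of 2295 in T0:T3, and a minimum of 6 counts per gene and library gave 2354 in T0:T2 and 3212 in T2:T3.

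The periods share replicate numbers in the titles, which are other numbers than the sample numbers that recur at offsets, so this block does not test a pairing by those. Same-numbered libraries did not deviate together in every pair, since the correlations of their deviations from the period means ran from -0.24 to 0.46 in T1:T2, from -0.32 to 0.40 in T1:T3 and from -0.35 to 0.52 in T2:T3, and only 6 of 11, 5 of 8 and 3 of 8 had the same sex. Of the same-numbered libraries, 3 of 11, 3 of 8 and 2 of 8 correlated best with their own number. A replicate block changed no call of RICTOR and gave -1.86 in T0:T1, -1.58 in T0:T2, 0.35 in T0:T3, 0.45 in T1:T2, 2.27 in T1:T3, 1.98 in T2:T3 and 2.36 over the 4 periods, and the number of called genes in T0:T3 fell to 1447.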
